A study of Homo sapiens with 12 samples.

Results

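The HOX cluster genes are the 39 protein-coding genes of the HOXA, HOXB, HOXC and HOXD clusters, chosen by symbol from a table of counts for 58302 genes. They lie in 4 clusters, HOXA on chromosome 7 (11 genes), HOXB on chromosome 17 (10 genes), HOXC on chromosome 12 (9 genes) and HOXD on chromosome 2 (9 genes). Poly(A) RNA was sequenced in bulk from 2 human prostate cancer cell lines, 22Rv1, grown from a xenograft of a prostate carcinoma, and PC3, grown from a bone metastasis. In each line, cells received ETV4AAA, which the labels call a mutated ETV4, wild type ETV4 (ETV4WT) or no ETV4 (eGFP), each from an MSCV-IRES-GFP vector that carries eGFP behind an internal ribosome entry site. All 6 groups shared the infection, the eGFP marker and, after 1 week, the sorting of live eGFP-positive cells, and each held 2 libraries. The labels do not say whether the 2 libraries of a group came from separate cultures, so p-values measure only the spread between these libraries, which may be technical.

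HOX proteins are homeodomain transcription factors that give cells their position along the body axis. Within a cluster the genes stand in the order of their paralog numbers, low numbers being used toward the head (anterior) and high numbers toward the tail and in the urogenital tract (posterior). HOX proteins bind DNA together with PBX and MEIS cofactors, and Polycomb complexes keep unused clusters silent. ETV4 is an ETS-family activator whose DNA site has the core GGAA, and HOXB13 is the posterior HOX gene known for its high expression in prostate epithelium.

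ETV4 itself was measured first. It stood at 390 and 281 CPM (counts scaled to a common library total by the TMM method) in 22Rv1 libraries labelled ETV4AAA and at 385 and 484 CPM in those labelled ETV4WT, against 31.2 and 24.9 CPM in those labelled eGFP. In PC3 it stood at 222 and 109 CPM in libraries labelled ETV4AAA, at 215 and 112 CPM in those labelled ETV4WT, against 116 and 126 CPM in those labelled eGFP. The PC3 construct libraries numbered 2 were thus below both eGFP libraries in ETV4, though their labels say that ETV4 was added. A gene count does not separate ETV4 of the vector from the cell's own, so it cannot by itself decide whether labels hold. Without HOXB13, HOX CPM summed to 63.2 and 67.8 in ETV4AAA libraries 1 and 2. ETV4WT libraries 1 and 2 reached 145 and 158, beside 97.5 and 93.2 for eGFP. By this sum each construct library numbered 2 was near its partner, while its HOXB13 was lower. The cause of the low ETV4 was not tested. HOX counts in PC3 are given below with and without the construct libraries numbered 2, a choice made after seeing the data. PC3 with ETV4AAA or with ETV4WT means the libraries labelled so. Library totals ran between 41698738 and 50226044 counts in 22Rv1 and between 43572713 and 51199207 counts in PC3. Of 9 luminal prostate markers, 9 reached 1 CPM in both libraries of each 22Rv1 group and 4 in each PC3 group, where KLK3 had 0 counts throughout. In bulk RNA, fewer cells expressing a gene and less RNA of it per cell cannot be told apart.

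HOXB13 had the highest level per length in all 6 groups. Its mean was 232 CPM per kb of exon in 22Rv1 with ETV4AAA, 213 with ETV4WT and 189 with eGFP, and 204, 127 and 174 CPM per kb in PC3 with ETV4AAA, ETV4WT and eGFP. Depending on the library it made up 67.7% to 92.8% of all HOX CPM. The next highest gene per length was HOXB9 in 22Rv1 with ETV4AAA (42.4 CPM per kb), HOXC12 in 22Rv1 with ETV4WT (10.5) and with eGFP (12.4), HOXA13 in PC3 with ETV4AAA (5.06) and with eGFP (10.8), and HOXB9 in PC3 with ETV4WT (10.3). At least 1 CPM in both libraries of a group was reached by 22 of the 39 genes in each 22Rv1 group, and by 9 genes in PC3 with ETV4AAA, 28 with ETV4WT and 8 with eGFP. Across the groups 30 genes reached that level somewhere, and HOXB1 and HOXD1 had 0 counts in every library.

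**Figure D1:**
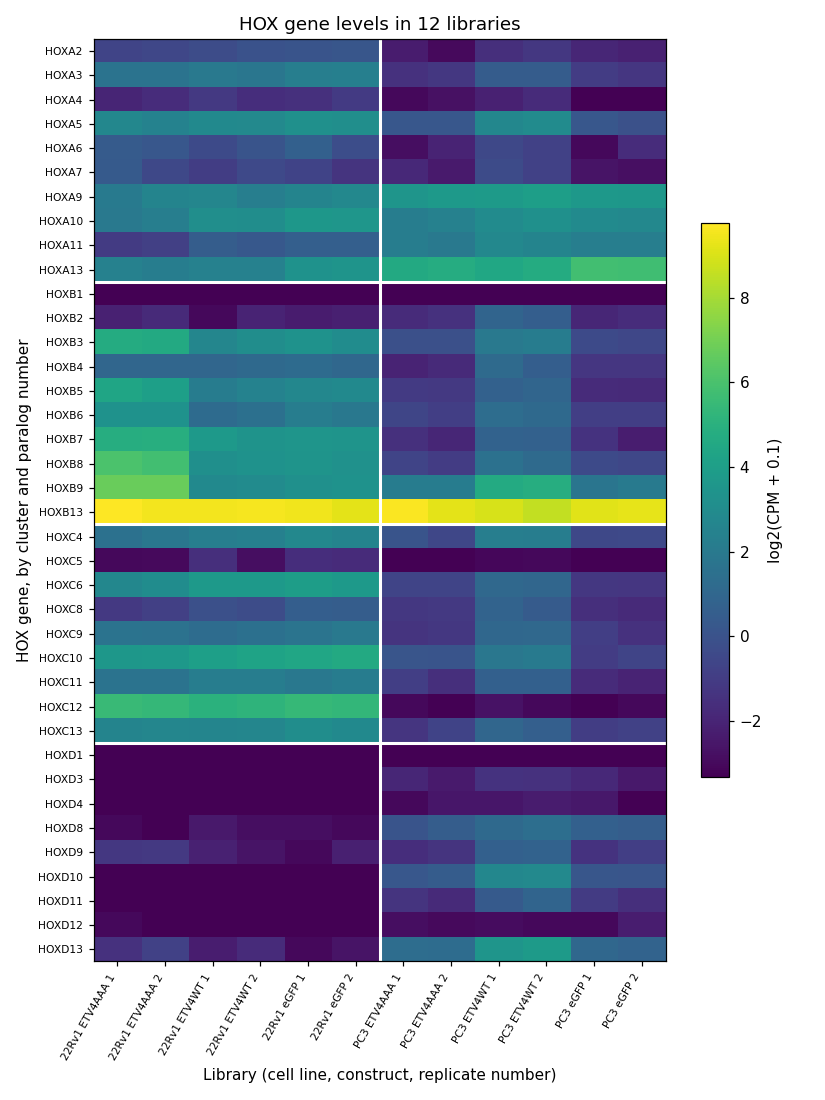
Heat map of log2(CPM + 0.1) for HOX genes (rows, by cluster and paralog number) in the 12 libraries (columns, by cell line, construct and replicate number), with 22Rv1 left of the white vertical line. HOXB13 is the brightest row in every library, the HOXD rows are dark in 22Rv1, and most rows brighten in the 2 PC3 ETV4WT libraries.

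Without added ETV4, the 2 lines shared a high HOXB13 level but differed in the HOXC and HOXD clusters and within HOXA. With eGFP, each of the 9 HOXC genes was higher in 22Rv1 than in PC3, each of the 6 tested HOXD genes was lower, and within HOXA the posterior genes HOXA9, HOXA11 and HOXA13 were lower while the other 8 were higher. In all, 24 HOX genes were higher and 9 lower in 22Rv1, of the 35 of 39 that passed the filter on low counts and were tested (edgeR quasi-likelihood test, Benjamini-Hochberg adjusted p under 0.05 over 23238 genes). Of all genes tested, 70.9% passed in this comparison, 34.9% higher (8105 genes) and 36% lower. The split moved to 9917 of 16684 calls higher under upper-quartile scaling, which shifted the median of all genes by 0.339 on the log2 scale, while HOX calls became 25 higher and 9 lower. The median log2 difference was 2.89 over the tested HOX genes and 0.00 over all genes.

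HOXC12, a posterior gene of the HOXC cluster, stood far apart between the lines. It had 43 and 39.7 CPM in 22Rv1 with eGFP, against 0 and 0.0215 CPM in PC3 with eGFP. That is 4025 counts in 22Rv1 and 1 count in PC3, a ratio of 3979 (95% interval 714 to 157189, covering counting error only). No PC3 library went above 0.0557 CPM and no 22Rv1 library fell under 33.1 CPM. HOXD10, which patterns limbs and spinal cord, had 0 counts in every 22Rv1 library, against 1.03 and 0.988 CPM in PC3 with eGFP, so it was at least 32.7-fold lower in 22Rv1 (3 counts over the group taken as the floor). HOXA13, needed for the hindgut and urogenital tract, had 10.2 and 10.8 CPM in 22Rv1 with eGFP, against 56.3 and 53.6 CPM in PC3 with eGFP (log2 difference -2.39 ± 0.16, SE, adjusted p = 5.05e-08). HOXB13 had 714 and 598 CPM in 22Rv1 with eGFP, against 584 and 625 CPM in PC3 with eGFP, which overlap (log2 difference 0.12 ± 0.17, adjusted p = 0.561).

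**Figure D2:**
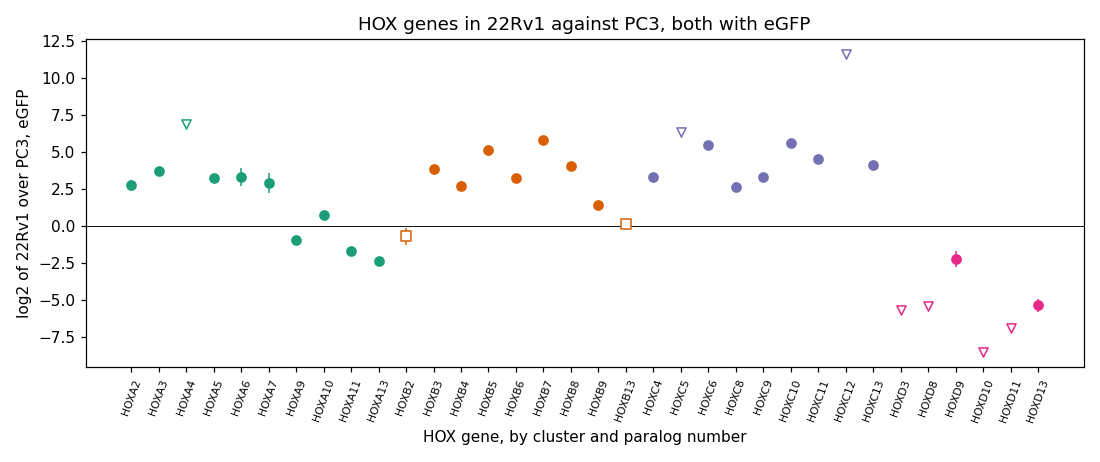
Log2 of 22Rv1 over PC3, both with eGFP, for tested HOX genes (points, coloured by cluster; bars, SE). Filled circles passed the test, open squares did not (HOXB2 and HOXB13), and open triangles are fitted values where a line had 0 to 3 counts, which are no bounds. HOXC points lie above 0 and HOXD points below it.

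With ETV4AAA in 22Rv1, a block of HOXB genes rose while HOXA and HOXC genes fell. In that comparison 10 HOX genes rose and 10 fell, 20 of the 35 tested members (57.1%). Of all genes tested, 31.8% passed (17.4% up and 14.4% down). The median log2 change was -0.19 over the tested HOX genes, and 0.00 over all genes. By cluster, 6 HOXB genes rose and none fell by this test (HOXB2, HOXB4 and HOXB13 were tested and did not pass), 5 HOXC genes fell and none rose, 2 HOXA genes rose and 5 fell, and 2 HOXD genes rose.

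The rise was largest at HOXB9, the gene next to the gap before HOXB13 (chr17:48621159-48626356, minus strand, GRCh38). HOXB9, a posterior trunk gene, had 109 and 110 CPM in 22Rv1 with ETV4AAA, against 9.31 and 10.1 CPM with eGFP (log2 change 3.49 ± 0.15, adjusted p = 9.55e-09). HOXB8, a trunk gene also known as a regulator of myeloid progenitors, had 65.6 and 55.8 CPM with ETV4AAA, against 10.8 and 9.67 CPM with eGFP (log2 change 2.56 ± 0.18). In both genes the ETV4AAA libraries stood far above the 4 other 22Rv1 libraries, whose ETV4WT and eGFP values overlapped for HOXB8. HOXB3 had 26.8 and 24.7 CPM with ETV4AAA, against 10 and 8.11 CPM with eGFP. The rise was also smaller at HOXB5 (1.43 ± 0.17), HOXB6 (1.31 ± 0.18) and HOXB7 (1.38 ± 0.20), and the ETV4AAA libraries were above the eGFP ones in each of these. HOXB4, between HOXB3 and HOXB5, had 1.86 and 1.87 CPM with ETV4AAA and 2.28 and 1.98 CPM with eGFP (log2 change -0.19 ± 0.22, adjusted p = 0.58). HOXB13 had 865 and 746 CPM with ETV4AAA, against 714 and 598 CPM with eGFP (log2 change 0.30 ± 0.17, adjusted p = 0.228). The summed HOXB level without HOXB13 was 262 and 248 CPM with ETV4AAA, against 44.5 and 47.4 CPM with ETV4WT, while eGFP libraries had 54.7 and 51.8 CPM.

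**Figure D3:**
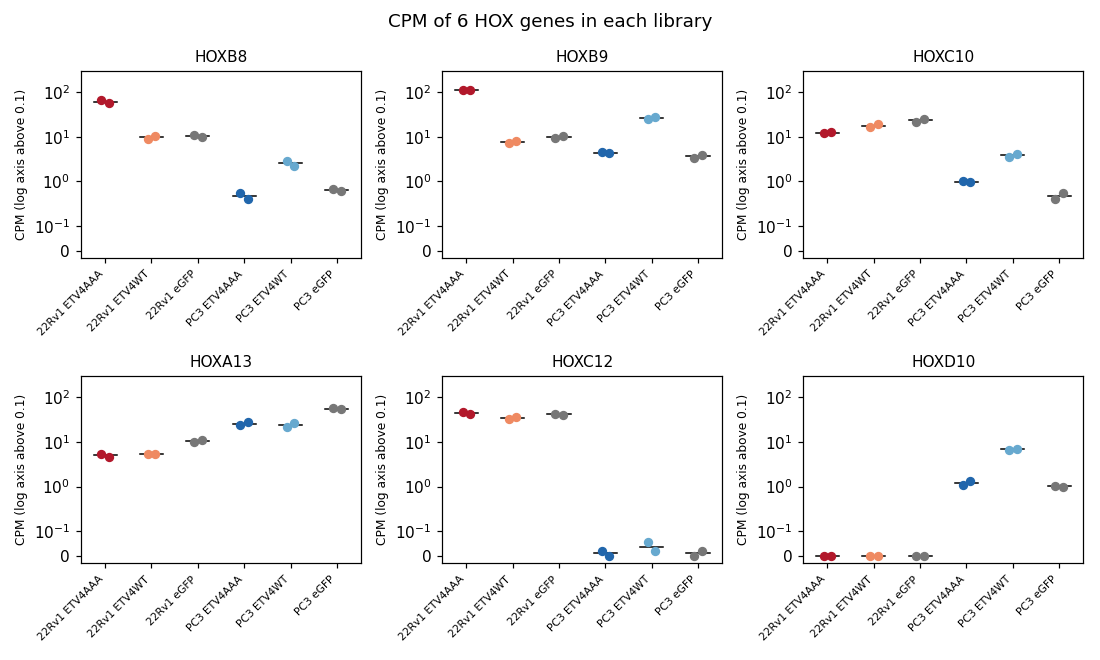
CPM of 6 HOX genes in each library (points; bar, mean of the 2 libraries), on an axis that is logarithmic above 0.1 CPM and linear below. HOXB8 and HOXB9 are highest in 22Rv1 with ETV4AAA, HOXA13 is lower with either construct than with eGFP in both lines, HOXC12 is near 0 in PC3 and HOXD10 is 0 in 22Rv1.

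The HOXA and HOXC changes in 22Rv1 with ETV4AAA were mostly downward. HOXA10, which patterns the reproductive tract, had 3.81 and 4.81 CPM with ETV4AAA, against 12.2 and 11.7 CPM with eGFP (log2 change -1.47 ± 0.17, adjusted p = 4.72e-05). HOXA11, its neighbour with a role in uterus and limb, had 0.377 and 0.451 CPM with ETV4AAA, against 1.46 and 1.44 CPM with eGFP (-1.80 ± 0.23). HOXC10, a hindlimb gene, had 12.2 and 12.5 CPM with ETV4AAA, against 21.4 and 24.9 CPM with eGFP (-0.90 ± 0.16). None of these groups overlapped. HOXA3 (-0.66), HOXA5 (-0.58), HOXC4 (-0.99), HOXC6 (-0.99) and HOXC8 (-1.77 ± 0.26) fell as well. HOXC5 fell to 2 counts in the ETV4AAA group, against 21 counts in the eGFP group, a ratio of 9.41 (95% interval 2.3 to 82.8), and 59.9% of its exon length is shared with other genes of the same strand. The HOXC5 call was lost when any 1 of the 4 libraries was left out, and the HOXA5 call without ETV4AAA replicate 2 or eGFP replicate 1. HOXA7 (1.18 ± 0.41) rose, but its change was 0.60 without ETV4AAA replicate 1, and the call was lost then and without either eGFP library. Of the HOXA7 exon length, 62.5% lies opposite the antisense gene HOXA-AS3. The strand setting of the counting is not stated, so reads of such overlapping genes cannot be told apart.

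HOXD genes were near silent in 22Rv1, and HOXD9 and HOXD13 rose with ETV4AAA. HOXD13, the most posterior HOXD gene, had 0.266 and 0.474 CPM in 22Rv1 with ETV4AAA, against 0.0205 and 0.0617 CPM with eGFP, and its ETV4WT libraries lay between at 0.109 and 0.204 CPM. The change with ETV4AAA was 3.08 ± 0.56 on the log2 scale (adjusted p = 0.00126), and that with ETV4WT was 1.88 ± 0.66 and did not pass (adjusted p = 0.217). HOXD9 had 0.333 and 0.356 CPM with ETV4AAA, against 0.0205 and 0.123 CPM with eGFP (2.22 ± 0.57). Both genes had few reads in every 22Rv1 library. Leaving out eGFP replicate 1 gave a HOXD9 change of 1.44, leaving out eGFP replicate 2 one of 3.88, and the call was lost without eGFP replicate 1 or ETV4AAA replicate 2. Marker lists moved in this comparison too: the 9 luminal markers summed to 2079 to 2242 CPM with ETV4AAA and 2622 to 2709 CPM with eGFP, with 5 lower and 1 higher. The 3 basal markers summed to 0.83 to 1.11 CPM with ETV4AAA and 0.0206 to 0.123 CPM with eGFP (KRT14 at 0 counts with ETV4AAA, KRT5 at 0 with eGFP). The 9 stromal and endothelial markers summed to 15.3 to 16.7 CPM with ETV4AAA and 6.69 to 9.27 CPM with eGFP, the 5 immune markers to 8.21 to 8.98 CPM with ETV4AAA and 1.28 to 1.56 CPM with eGFP, and the 3 neuroendocrine markers to 123 to 132 CPM with ETV4AAA and 123 to 133 CPM with eGFP. Of these lists, 3, 1 and 1 rose and 0 fell, and PECAM1, CDH5 and CD3E were at 0 counts with eGFP. The part of these in the HOX changes was not tested.

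ETV4WT in 22Rv1 moved 1 HOX gene past the test. HOXA13 was the 1 of 35 tested members that passed (2.86%), downward, and 11 tested members had an unadjusted p under 0.05. Of all genes tested, 1.5% passed (1.06% up and 0.439% down). The median log2 change was -0.25 over the tested HOX genes and 0.01 over all genes. HOXA13 had 5.33 and 5.26 CPM with ETV4WT, against 10.2 and 10.8 CPM with eGFP (log2 change -0.99 ± 0.16, adjusted p = 0.00739). The call was lost without ETV4WT replicate 1 (adjusted p = 0.0625) and without eGFP replicate 2 (adjusted p = 0.0516), while its change ran from -1.03 to -0.95 over the 4 libraries left out in turn. HOXB6 came next, with 2.29 and 2.73 CPM with ETV4WT, against 4.53 and 3.64 CPM with eGFP (-0.70 ± 0.18, adjusted p = 0.0998).

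In PC3 the larger HOX response went with ETV4WT. There 25 HOX genes rose, in all 4 clusters, and HOXA13 fell, 26 of the 35 tested members (74.3%). Of all genes tested, 23.4% passed (12.7% up and 10.7% down). Under upper-quartile scaling 3724 of 5385 calls over all genes were upward, against 2958 of 5434 with TMM, with a shift of 0.148 in the median of all genes, and HOX calls became 27 up and 1 down. Without the PC3 construct libraries numbered 2, 26 HOX genes rose and 1 fell, and the 26 calls of the full data were all among these. The median log2 change was 2.51 over the tested HOX genes and 0.00 over all genes. Most of these genes started low: 22 tested HOX genes lay between 0.1 and 1 CPM in PC3 with eGFP, and 20 of them rose, with a median log2 change of 2.53. Among all 6362 tested genes at that level, 15.6% rose, with a median of 0.12.

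The rises in PC3 with ETV4WT had similar sizes across clusters. HOXB9 had 25 and 28 CPM with ETV4WT, against 3.34 and 3.95 CPM with eGFP (log2 change 2.86 ± 0.15, adjusted p = 7.8e-07). HOXA5, a gene of lung and thorax patterning, had 6.45 and 7.71 CPM with ETV4WT, against 1.09 and 0.859 CPM with eGFP (2.86 ± 0.19). HOXD13 had 11.3 and 13.7 CPM with ETV4WT, against 1.95 and 1.7 CPM with eGFP (2.78 ± 0.23). In each of these genes both ETV4WT libraries were several times above the eGFP libraries. HOXC10 had 3.53 and 4.16 CPM with ETV4WT, against 0.402 and 0.537 CPM with eGFP (3.03 ± 0.21). HOXD10 had 6.63 and 6.97 CPM with ETV4WT, against 1.03 and 0.988 CPM with eGFP (2.75 ± 0.20). Groups stood apart again, and the 8 HOXB genes that rose changed by 1.99 to 3.09, the 7 HOXC genes by 1.87 to 3.09 and the 4 HOXD genes by 2.14 to 2.78.

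The HOXA cluster divided by position. Its anterior genes HOXA3 (1.81 ± 0.22), HOXA5, HOXA6 (2.23 ± 0.67) and HOXA7 (3.46 ± 0.63) rose in PC3 with ETV4WT. HOXA4 had 17 counts in the ETV4WT group and 0 in the eGFP group, at least 5.26-fold higher. Exons of HOXA3, HOXA4, HOXA6 and HOXA7 partly overlap antisense genes, whose reads may be shared, while those of HOXA5 overlap none. HOXA9 had 14 and 16.1 CPM with ETV4WT, against 12.5 and 12.2 CPM with eGFP (0.29 ± 0.20, adjusted p = 0.325), and HOXA10 (0.24 ± 0.17) and HOXA11 (0.43 ± 0.16, adjusted p = 0.0754) did not pass either. HOXA13 had 21.7 and 26.8 CPM with ETV4WT, against 56.3 and 53.6 CPM with eGFP (-1.18 ± 0.15, adjusted p = 0.000175). The HOXA6 change rests on few counts, and leaving out eGFP replicate 1 gave 1.34, leaving out eGFP replicate 2 gave 4.60, and the call was lost without eGFP replicate 1 or either ETV4WT library. The remaining genes that did not pass were HOXA2, HOXB13, HOXC5, HOXC12, HOXD3 and HOXD8, with HOXB13 at 504 and 376 CPM with ETV4WT, against 584 and 625 CPM with eGFP (-0.46 ± 0.17, adjusted p = 0.0799). Luminal markers summed to 288 to 366 CPM with ETV4WT and 603 to 627 CPM with eGFP, with 3 higher and 3 lower, 4 of 9 at 1 CPM in both groups and KLK3 at 0 in both (KLK2, TMPRSS2 and FOLH1 also at 0 with eGFP). The 3 neuroendocrine markers summed to 5.79 to 6.85 CPM with ETV4WT and 2.05 to 2.28 CPM with eGFP, with 2 higher. The part of these in the HOX changes was not tested.

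**Figure D4:**
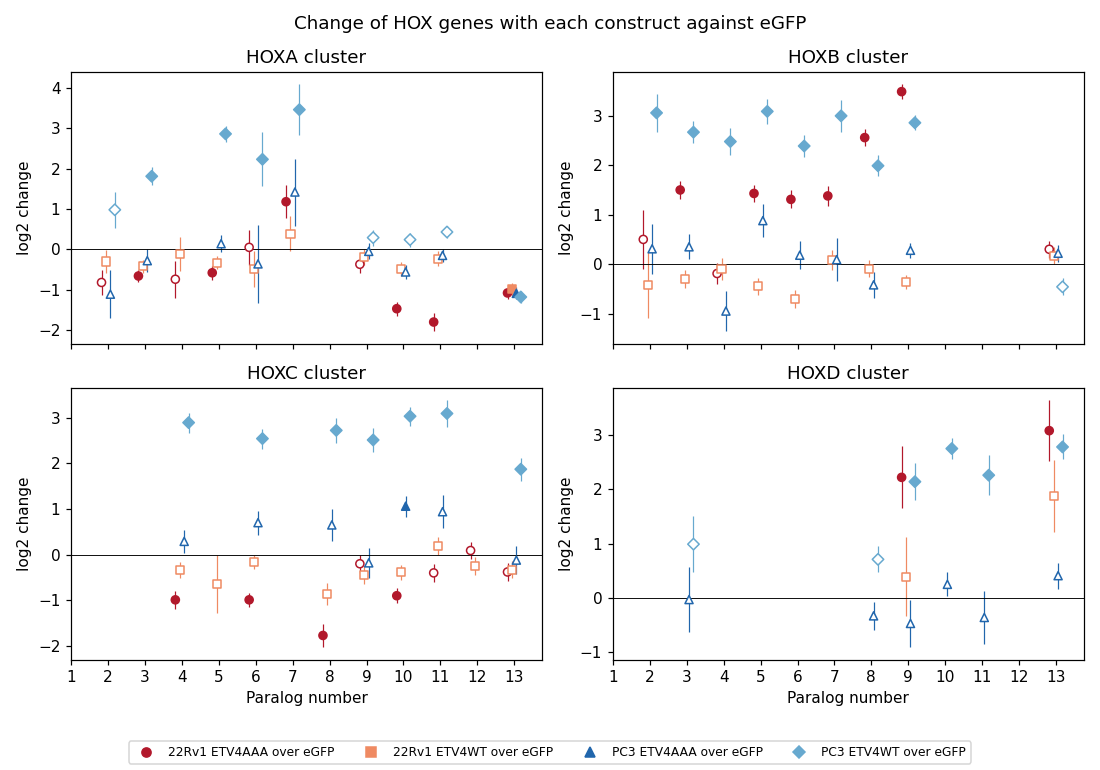
Log2 change against eGFP (points; bars, SE) by paralog number, a panel for each cluster, for the 4 combinations of line and construct. Filled points passed the test, open points did not, and genes with 3 counts or fewer in a group are left out. Filled PC3 ETV4WT points lie between 1.81 and 3.46 except HOXA13, which lies below 0, and the highest 22Rv1 ETV4AAA point is HOXB9.

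ETV4AAA in PC3 moved few HOX genes past the test. HOXA13 fell and HOXC10 rose, 2 of the 35 tested members (5.71%), and 9 tested members had an unadjusted p under 0.05. Of all genes tested, 3.69% passed (2.45% up and 1.24% down). The share of all genes itself moved, to 9.24% without ETV4AAA replicate 1 (2253 calls, 688 of them up, against 858 and 569 with all libraries), 1.57% without ETV4AAA replicate 2, 0.874% and 0.89% without eGFP replicate 1 or 2, and 2152 calls (907 up) with no filter on low counts. HOXA13 had 24.1 and 27.3 CPM with ETV4AAA, against 56.3 and 53.6 CPM with eGFP (-1.09 ± 0.15, adjusted p = 0.00179), and without the PC3 construct libraries numbered 2 its change was -1.19 (adjusted p = 0.000887). HOXC10 had 1.01 and 0.956 CPM with ETV4AAA, against 0.402 and 0.537 CPM with eGFP (1.06 ± 0.23, adjusted p = 0.0266). The HOXC10 call was lost when any 1 of the 4 libraries was left out (changes of 0.87 to 1.29), and also without the PC3 construct libraries numbered 2 (1.10, adjusted p = 0.0868). The median log2 change was 0.09 over the tested HOX genes and 0.00 over all genes. Luminal markers summed to 361 to 497 CPM with ETV4AAA and 603 to 627 CPM with eGFP, with 1 lower, 4 of 9 at 1 CPM in both groups, and KLK3, KLK2 and FOLH1 at 0 with ETV4AAA. The 5 immune markers summed to 0.493 to 0.597 CPM with ETV4AAA and 0.221 to 0.322 CPM with eGFP, and the 9 stromal and endothelial markers to 319 to 403 CPM with ETV4AAA and 383 to 391 CPM with eGFP, with 1 higher in each list. The part of these in the HOX changes was not tested.

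HOXA13 (chr7:27193503-27200106, minus strand) was thus lower with each construct in each line, and it is the gene that passed in the most comparisons against eGFP. The 2 comparisons within a line share their eGFP libraries, so they are not independent of each other. Its changes were -1.08 ± 0.16 and -0.99 ± 0.16 with ETV4AAA and ETV4WT in 22Rv1, and -1.09 ± 0.15 and -1.18 ± 0.15 in PC3. By the interaction test the change differed between the lines by 0.02 ± 0.22 for ETV4AAA and 0.19 ± 0.22 for ETV4WT, neither passing. ETV4AAA and ETV4WT libraries of a line overlapped for HOXA13 in both lines. HOTTIP, a long noncoding RNA transcribed away from the HOXA13 end of the cluster, was looked at after its values were seen. It changed by -1.06 ± 0.26 and -0.50 ± 0.24 with ETV4AAA and ETV4WT in 22Rv1, and by -1.19 ± 0.17 and -1.01 ± 0.17 in PC3, passing in all but 22Rv1 with ETV4WT (adjusted p = 0.365). Only 1.69% of the HOXA13 exon length lies opposite HOTTIP.

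The 250 bases before the start of 3 genes are shown because they changed in different ways: HOXA13 fell with each construct, HOXA11 fell with ETV4AAA in 22Rv1, and HOXD13 rose in 22Rv1 with ETV4AAA and in PC3 with ETV4WT (HOXA11 and HOXD13 were chosen after their values were seen). They are from RefSeq, GRCh38.p14, 5′ to 3′ on the gene's strand, at chr7:27200092-27200341 (minus strand), chr7:27185233-27185482 (minus strand) and chr2:176092471-176092720 (plus strand). The starts are RefSeq's, which lie 15, 9 and 170 bases from the GENCODE 29 gene starts of HOXA13, HOXA11 and HOXD13, so the HOXA13 stretch includes the first 15 bases of that gene's GENCODE span. Capitals mark GGAA, the ETS core, on either strand (TTCC on the strand shown).
HOXA13: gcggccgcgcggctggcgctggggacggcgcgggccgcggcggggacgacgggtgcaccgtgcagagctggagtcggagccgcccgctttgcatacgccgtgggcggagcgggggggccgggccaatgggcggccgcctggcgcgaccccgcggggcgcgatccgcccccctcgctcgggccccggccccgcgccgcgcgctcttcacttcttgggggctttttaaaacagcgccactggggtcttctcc
HOXA11: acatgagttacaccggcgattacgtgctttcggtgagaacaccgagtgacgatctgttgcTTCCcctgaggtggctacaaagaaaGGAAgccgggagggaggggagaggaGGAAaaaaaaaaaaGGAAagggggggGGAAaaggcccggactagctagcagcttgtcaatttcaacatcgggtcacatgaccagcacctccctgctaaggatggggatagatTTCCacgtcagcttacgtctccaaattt
HOXD13: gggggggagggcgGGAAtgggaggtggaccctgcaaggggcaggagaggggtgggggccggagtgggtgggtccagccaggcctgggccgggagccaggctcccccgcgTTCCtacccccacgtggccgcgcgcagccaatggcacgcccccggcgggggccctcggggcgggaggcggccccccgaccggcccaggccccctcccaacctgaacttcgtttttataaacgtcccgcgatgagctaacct
The HOXA13 stretch held no GGAA on either strand and was 78% G or C, the HOXA11 stretch held 6 and the HOXD13 stretch 2. GGAA was found in 16 of the 20 HOX promoters matched by symbol (80%) and in 92.7% of all 35114 promoters in the table. The longer site CGGAAG was found in 2 of 20 (10%) and in 16.5% of all, and the homeodomain core TAAT in 14 of 20 (70%) and in 47.4% of all, each searched on both strands of these 250 bases. The 20 were 9 HOXA genes, HOXB1, HOXC4 and HOXC5 (listed with the same stretch) and 8 HOXD genes, and HOXB2 to HOXB9, HOXB13 and HOXC6 to HOXC13 were not among them. A match is a run of letters and not a bound site.

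Set directly against each other, ETV4AAA gave higher levels of 6 HOXB genes than ETV4WT in 22Rv1. In PC3 it gave lower levels of most tested HOX genes in all 4 clusters, though not of HOXB13. The summed HOXB level in PC3, most of it HOXB13, was 714 CPM with ETV4AAA and 482 CPM with ETV4WT. In 22Rv1, 7 HOX genes were higher and 7 lower with ETV4AAA than with ETV4WT, 14 of the 35 tested members (40%). Of all genes tested, 23.5% passed (13.9% up and 9.62% down). HOXB9 had 109 and 110 CPM with ETV4AAA, against 7.27 and 7.9 CPM with ETV4WT (log2 difference 3.85 ± 0.15, adjusted p = 1.19e-08). The others higher were HOXB3, HOXB5, HOXB6, HOXB7, HOXB8 and HOXD9, and HOXA10, HOXA11, HOXC4, HOXC6, HOXC8, HOXC10 and HOXC11 were lower, with log2 differences of -0.51 to -1.57. DESeq2 called 7 higher and 3 lower, and edgeR with no filter on low counts 8 higher and 3 lower. Calls of HOXC8, HOXC10, HOXC11 and HOXD9 were lost when any 1 of the 4 libraries was left out, and that of HOXC4 in 3 of the 4 cases. In PC3, 1 HOX gene was higher and 28 were lower with ETV4AAA than with ETV4WT, 29 of the 35 tested members (82.9%). Of all genes tested, 11% passed (3.65% up and 7.32% down). HOXB9 had 4.46 and 4.37 CPM with ETV4AAA, against 25 and 28 CPM with ETV4WT (-2.59 ± 0.15, adjusted p = 3.61e-06). HOXB13 was the gene that was higher, with 812 and 601 CPM with ETV4AAA and 504 and 376 CPM with ETV4WT (0.68 ± 0.18, adjusted p = 0.0263), a call lost without PC3 ETV4AAA replicate 1 or ETV4WT replicate 2, and without both construct libraries numbered 2 (0.59). Without the PC3 construct libraries numbered 2, 22 HOX genes were lower and none higher by the same test. Upper-quartile scaling shifted the median of all genes by -0.113 in PC3 (414 of 2432 calls upward, against 848 of 2550 with TMM) and left the HOX counts at 1 and 28. Leaving out 1 PC3 library ended at least once the calls of HOXA2, HOXA6, HOXA7, HOXA10, HOXA11 and HOXD8 there.

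The difference between the lines was tested as an interaction. The ETV4AAA change was larger (more upward) in 22Rv1 than in PC3 for 6 HOX genes and lower for 7, where 16.2% of all genes tested passed (9.48% up and 6.73% down). HOXB9 (3.22, adjusted p = 7.4e-07) and HOXB8 (2.98, adjusted p = 3.89e-05) led the first and HOXC8 (-2.42) and HOXC10 (-1.97) the second. The ETV4WT change was lower in 22Rv1 than in PC3 for 21 HOX genes and higher for none by this test, where 12.5% of all genes tested passed (4.92% up and 7.57% down), and 25 members had an unadjusted p under 0.05. Under upper-quartile scaling 731 of 2995 calls over all genes were upward in that test, against 1144 of 2903 with TMM, with a median shift of -0.185 and 23 HOX genes lower. The ETV4AAA over ETV4WT difference was higher in 22Rv1 than in PC3 for 21 HOX genes and lower for HOXA11, where 21% of all genes tested passed (13% up and 7.94% down). Without the PC3 construct libraries numbered 2, the 3 interaction counts were 12, 21 and 21. The 20 calls of ETV4AAA in 22Rv1 were set beside the 26 of ETV4WT in PC3, which share no library. Of these, 11 HOX genes moved the same way, 55% of the first list and 42.3% of the second. Among the 11 were HOXA7, HOXA13, 6 HOXB genes, HOXD9 and HOXD13. Another 6, HOXA3, HOXA5, HOXC4, HOXC6, HOXC8 and HOXC10, fell in 22Rv1 with ETV4AAA and rose in PC3 with ETV4WT. Over all genes, 1451 moved the same way in both comparisons, 19.6% of 7395 calls and 26.7% of 5434, and 788 moved opposite ways. Among genes called in both comparisons, the HOX split of 11 to 6 was near the 1451 to 788 of all genes. By that split, HOX genes did not show closer agreement in direction than all genes. The HOX shares of 55% and 42.3% were above the 19.6% and 26.7% of all genes. A larger part of the HOX genes than of all genes was also called in each comparison.

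Among the HOX cofactors of the TALE class (9 genes), 4 rose and 1 fell in PC3 with ETV4WT, where 12.7% of all genes tested rose and 10.7% fell, with a median log2 change of 0.98 beside 0.00 over all genes. MEIS1, which stabilises PBX and HOX on DNA, had 3.83 and 4.52 CPM with ETV4WT, against 1.19 and 0.988 CPM with eGFP (1.93 ± 0.18). Both ETV4WT libraries were above the eGFP ones in MEIS1 and in PKNOX2 (2.32 ± 0.28), while PBX2 did not pass (-0.13 ± 0.13). In 22Rv1 with ETV4AAA 2 rose and 1 fell, near the 31.8% of all genes that passed there: MEIS3 (1.77 ± 0.23) rose and PBX3 (-0.78 ± 0.17) fell, and PKNOX2 had 11 counts against 1, a ratio of 12.3 (95% interval 1.78 to 528). In 22Rv1 with ETV4WT and PC3 with ETV4AAA, 0 cofactors passed in edgeR (0 and 1 with an unadjusted p under 0.05), and PBX2, the highest expressed, changed by -0.04 and -0.07.

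Of 21 listed noncoding and other genes inside the clusters, 18 were tested, with a median log2 change of 2.60 in PC3 with ETV4WT and -0.34 in 22Rv1 with ETV4AAA. In PC3 with ETV4WT 10 rose and 1 fell (12.7% and 10.7% of all genes), among them HOTAIR, an antisense RNA of the HOXC cluster, with 1.08 and 1.63 CPM with ETV4WT against 0.0805 and 0.0644 CPM with eGFP (4.16 ± 0.40). HOXA-AS3 (2.91 ± 0.30) and HOXA-AS2 (2.53 ± 0.31) rose, and PRAC1 did not pass (0.24 ± 0.17). HOXA-AS3 lies opposite 62.5% of the HOXA7 and 39.3% of the HOXA6 exon length. HOXA-AS2 and HOXA-AS3 together lie opposite 15.4% of the HOXA3 and 16.3% of the HOXA4 exon length. With the strand setting not stated, the rises of these RNAs and of those HOXA genes may share reads. In 22Rv1 with ETV4AAA 3 rose and 7 fell (17.4% and 14.4% of all genes). HOXB-AS4, antisense in the HOXB cluster, had 2.62 and 2.13 CPM with ETV4AAA and 0 counts with eGFP, at least 77.4-fold higher. PRAC1, a small gene beside HOXB13, had 102 and 117 CPM with ETV4AAA, against 45.2 and 44.8 CPM with eGFP (1.28 ± 0.18), and HOXA-AS2 fell (-1.10 ± 0.23). PRAC1 also rose in 22Rv1 with ETV4WT (0.79 ± 0.17, adjusted p = 0.048), and in PC3 with ETV4AAA HOTTIP and HOXA11-AS (-1.61 ± 0.33) fell.

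Genes outside the clusters were mixed. Of 11 flanking genes, 10 tested, TTLL6 (1.83 ± 0.16) and CALCOCO2 (0.64 ± 0.14), on the HOXB13 side of the HOXB cluster, were among the 3 that rose in 22Rv1 with ETV4AAA, and CBX5, beside HOXC, was the 1 that fell (-1.05 ± 0.14). These 4 of 10 stand beside 31.8% of all genes. In PC3, SKAP2, beside the HOXA cluster, had 12.9 and 16.4 CPM with ETV4WT, against 3.16 and 3.03 CPM with eGFP (2.24 ± 0.18), and it rose with ETV4AAA too (0.83 ± 0.18). CALCOCO2 rose in PC3 with ETV4WT (0.80 ± 0.14), and these 2 of 10 stand beside 23.4% of all genes.

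Of 20 Polycomb subunits, 3 rose and 4 fell in 22Rv1 with ETV4AAA, 0 rose and 4 fell in PC3 with ETV4WT, and 0 rose and 2 fell in PC3 with ETV4AAA. Of all genes tested, 31.8%, 23.4% and 3.69% passed there, so the first 2 of these counts are near or under the share of all genes. The list's median log2 changes were -0.16, -0.33 and -0.23. EZH2, the H3K27 methyltransferase, fell in 22Rv1 with ETV4AAA, to 35.7 and 40.8 CPM against 79.2 and 90.2 CPM with eGFP (-1.15 ± 0.13), where PHC2 rose (1.57 ± 0.26). CBX2, a chromodomain subunit, stood at 27.5 and 14.3 CPM in PC3 with ETV4AAA, at 16 and 10.9 CPM with ETV4WT, and at 54.2 and 60.8 CPM in the eGFP libraries. It fell with ETV4AAA (-1.46 ± 0.29) and with ETV4WT (-2.09 ± 0.30), as did CBX8 (-0.90 ± 0.22 and -1.37 ± 0.22), and these comparisons share their eGFP libraries. The construct libraries numbered 2 were the lower of each pair for CBX2. Of 12 trithorax, MLL complex and H3K27 demethylase genes, 1 rose and 2 fell in 22Rv1 with ETV4AAA (MLLT3 0.90 ± 0.16, WDR5 -0.59 ± 0.13 and PSIP1 -0.61 ± 0.14), and 1 rose and 2 fell in PC3 with ETV4WT (PSIP1 0.49 ± 0.14, WDR5 -0.49 ± 0.13 and MEN1 -0.79 ± 0.26), which is near the 31.8% and 23.4% of all genes. MEN1 had 47.3 and 29.7 CPM in PC3 with ETV4WT, and 58.5 and 34.5 CPM with ETV4AAA. The eGFP libraries had 64.3 and 69.1 CPM, so for MEN1 too the construct libraries numbered 2 were the lower of each pair.

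Retinoic acid and CDX factors are upstream inputs to HOX clusters in the embryo. Of 19 listed genes, 15 were tested, and 6 rose and 5 fell in PC3 with ETV4WT, where 12.7% of all genes rose and 10.7% fell. CDX2, a caudal homeobox factor of the gut, had 3.47 and 2.81 CPM with ETV4WT, against 0.644 and 0.408 CPM with eGFP (2.57 ± 0.28), and 0 counts in every 22Rv1 library. CYP26B1 (2.37 ± 0.36), which breaks down retinoic acid, rose as well. In 22Rv1 with ETV4AAA 5 rose and 2 fell (17.4% and 14.4% of all genes), among them ALDH1A3 (2.15 ± 0.27) and ALDH1A1 (-1.81 ± 0.25), which both make retinoic acid, and CRABP2 (1.24 ± 0.21). ALDH1A1 fell with ETV4WT in 22Rv1 (-1.22 ± 0.24, adjusted p = 0.0294), and DHRS3 fell with ETV4AAA in PC3 (-0.83 ± 0.20, adjusted p = 0.0453).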

How the data were processed

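Poly(A) RNA-seq libraries of 22Rv1 and PC3 (6 groups, 2 libraries each) were analysed from the deposited table of raw gene counts. Per the submitters' processing notes, the authors used FastQC 0.11.9, STAR 2.5.3a and GRCh38; the counting tool, strand setting and annotation are not stated there or in the labels. Gene IDs were matched to GENCODE 29 (GRCh38; 99.55% matched), which gave symbols, coordinates and merged exon lengths. Counts were tested with edgeR 4.0.16 (R 4.3.3): filterByExpr, TMM, 1 mean per group over all 12 libraries, quasi-likelihood tests and Benjamini-Hochberg adjustment over 23238 genes, threshold 0.05. Common spread was estimated over all groups (biological coefficient of variation 0.149, 6 residual degrees of freedom). HOXB1, HOXD1, HOXD4 and HOXD12 did not pass the filter. Errors beside log2 changes are SE. The 2 libraries of each group differed by more than sampling noise, with a chi-square per degree of freedom of 3.36 in PC3 with eGFP and 22.4 to 60.1 in the other groups. Alternatives were RLE and upper-quartile scaling, other filters, DESeq2 1.42.0, limma 3.58.1 (voom), a replicate block, the compared groups alone, and each library left out. Figures were drawn with matplotlib 3.10.9.

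Members and gene lists were chosen with earlier results of these data known. From each other list, text names up to 3 passing genes with the lowest adjusted p per comparison and the highest-expressed gene that did not pass. Some items are not reported here. Promoters came from RefSeq (GRCh38.p14). Depth is given by library totals; intervals and floors cover counting error only.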

Additional observations from a re-analysis of the deposited data

Results flagged for a closer look

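Some HOX genes responded differently in the 2 lines, judged by a test of the difference itself (edgeR interaction contrast, adjusted over all genes tested); values in brackets are the log2 change in 22Rv1 minus that in PC3. For ETV4AAA against eGFP these were 13 genes, HOXA10 (-0.92), HOXA11 (-1.66), HOXB3 (1.16), HOXB6 (1.13), HOXB8 (2.98), HOXB9 (3.22), HOXC4 (-1.28), HOXC6 (-1.69), HOXC8 (-2.42), HOXC10 (-1.97), HOXC11 (-1.34), HOXD9 (2.69) and HOXD13 (2.67). For ETV4WT against eGFP these included HOXA3 (-2.23), HOXA4 (-6.10), HOXA5 (-3.19), HOXA6 (-2.71), HOXA7 (-3.07), HOXB2 (-3.47), HOXB3 (-2.97), HOXB4 (-2.58), HOXB5 (-3.55), HOXB6 (-3.09), HOXB7 (-2.91), HOXB8 (-2.08), HOXB9 (-3.22), HOXC4 (-3.23), HOXC6 (-2.70), HOXC8 (-3.58), HOXC9 (-2.95), HOXC10 (-3.42), HOXC11 (-2.91) and HOXC13 (-2.20). The HOXA4 value is a fitted one against 0 counts in PC3 with eGFP and is no bound. For ETV4AAA against ETV4WT these included HOXA3 (1.85), HOXA5 (2.47), HOXA6 (3.12), HOXA7 (2.83), HOXA11 (-0.99), HOXB2 (3.66), HOXB3 (4.12), HOXB4 (3.34), HOXB5 (4.10), HOXB6 (4.22), HOXB7 (4.21), HOXB8 (5.07), HOXB9 (6.44), HOXC4 (1.95), HOXC6 (1.01), HOXC9 (2.94), HOXC10 (1.45), HOXC11 (1.57), HOXC13 (1.94), HOXD9 (4.44) and HOXD13 (3.57). Leaving out 1 library at a time ended at least once the calls of HOXA10, HOXB3, HOXB6, HOXC4, HOXC11, HOXD9 and HOXD13 for the first, HOXA4, HOXA6, HOXA7 and HOXB2 for the second, and HOXA6, HOXA7, HOXA11 and HOXC6 for the third. The 3 tests share libraries. Each group holds 2 libraries, too few to look for single outlying libraries. Causes of these differences were not tested, and the PC3 construct libraries numbered 2, whose ETV4 level was under that of eGFP, enter all 3.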

How the results depend on the processing

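The 181 calls of single HOX genes were recomputed under the alternatives, which does not cover genes without a call. Of 2494 such values, 2315 kept their direction and side of the threshold, 179 kept only their direction and 0 reversed. Counts of HOX genes called moved by over 1.5 times in few places. In PC3 with ETV4AAA against eGFP the 2 calls became 1 (HOXA13) with limma-voom, with the compared groups alone, without the PC3 construct libraries numbered 2 (an alternative chosen after seeing the data) and in each of the 4 fits that left out 1 library (range 1 to 1). Leaving out 1 library gave 0 to 1 calls for ETV4WT in 22Rv1 (1 with the full data; edgeR unadjusted p under 0.05 in 7 members in both fits with 0 calls; DESeq2 and limma-voom on all libraries called 1), 9 to 10 for ETV4AAA over ETV4WT in 22Rv1 (14 with the full data; 9 without ETV4WT replicate 1), and 7 to 11 for the ETV4AAA interaction (13 with the full data; 7 without 22Rv1 ETV4AAA replicate 1, 8 without 22Rv1 eGFP replicate 1 and 8 without either PC3 eGFP library). The number of HOX genes detected in at least 1 of the 6 groups was 30 at 1 CPM, 35 at 0.1 CPM, 19 at 5 CPM and 31 on unscaled totals. The cause of these moves was not tested.

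Same-numbered libraries of PC3 with ETV4AAA and ETV4WT deviated together (correlation 0.49), but other pairs ran from -0.15 to 0.21 within a line and -0.10 to 0.36 across lines, so the numbers were not taken as pairing. With the replicate block, 179 of 181 gene calls kept their side of the threshold, and called members numbered 20 (22Rv1 ETV4AAA), 1 (22Rv1 ETV4WT), 2 (PC3 ETV4AAA) and 28 (PC3 ETV4WT). Many HOX genes lie under 1 CPM, where few reads set the changes. An effect missing the threshold with 2 libraries a group is not shown to be absent.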
